A study of Mus musculus with 2 samples.

Results

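The genes described here are the matrix metalloproteinases (Mmp), the Adamts proteases and the Adamts-like proteins (Adamtsl), together with the Timp inhibitors, as read in single nuclei of the neonatal mouse cochlea. Genes were taken by symbol (Mmp, Timp, Adamts or Adamtsl followed by a number and, in some, a letter), and kept where at least 50 unique molecular identifiers (UMIs, each standing for 1 captured RNA molecule) were counted over both libraries in nuclei that showed 500 genes or more and took no more than 5% of their UMIs from mitochondrial genes. Of 33696 genes in the files, 51 had such a symbol and 37 passed the count: 11 of 23 Mmp genes, 19 of 19 Adamts genes, 4 of 5 Adamtsl genes and 3 of 4 Timp genes. The count is over both libraries together, so it did not depend on a difference between them. Just inside it were Adamts13 with 51 UMIs and Adamts8 with 69, and just outside were Timp4 with 48, Mmp21 with 32 and Adamtsl2 with 27. The other 11 genes that did not pass were Mmp genes with 14 UMIs or fewer, among them Mmp8, Mmp12 and Mmp13, and Mmp3, Mmp7 and Mmp10 had 0.

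Both groups are mice labelled Serpine2loxp/loxp, a Serpine2 allele with loxP on both chromosomes, whose construct the labels do not describe. They received tamoxifen at postnatal day 1 and were taken at day 7. The control group is Serpine2loxp/loxp alone, and the Serpine2 cOE (conditional overexpression) group also carries Lgr5EGFP-CreER/+, in which a tamoxifen-dependent Cre recombinase is made from the Lgr5 locus, so that recombination is limited to cells that use Lgr5. Basement membrane tissue of 19 control cochleae and of 20 Serpine2 cOE cochleae was pooled, which gives 1 library per group and no replicate. The ratios below therefore compare these libraries, not the conditions, and the intervals cover counting error only.

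Matrix metalloproteinases are zinc endopeptidases that cut collagens, laminins and other matrix proteins, either after secretion or, for the membrane-type members, at the cell surface. Adamts proteases are secreted and act on narrower substrates: one branch cuts the hyalectans aggrecan and versican, another removes the amino-terminal propeptide of fibrillar procollagens. Adamtsl proteins share the Adamts ancillary domains but lack the protease domain, and Timps block the active site of the proteases, Timp3 also that of several Adamts members. In the cochlea the matrix forms the basilar membrane, the spiral limbus and ligament, and the tectorial membrane that the greater epithelial ridge secretes. Serpine2 is itself a secreted inhibitor of serine proteases such as thrombin, urokinase and plasmin, and plasmin can activate secreted Mmp proenzymes.

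The catalytic site that separates the proteases from the rest of the set was read from the coding sequence of each gene's canonical GENCODE M39 transcript (build GRCm39), matched by gene identifier for all 37 genes. It is a stretch of 11 codons, 33 bases, in which 3 histidine codons, given in capitals, encode the residues that hold the zinc ion. The search asked for a histidine codon, a glutamate codon, any 2 codons, a histidine codon, any 5 codons and a histidine codon. The sites of the 5 Mmp members that the results below turn on were as follows, 5′ to 3′ on the coding strand.
Mmp2: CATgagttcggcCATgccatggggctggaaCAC
Mmp9: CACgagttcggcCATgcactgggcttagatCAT
Mmp14: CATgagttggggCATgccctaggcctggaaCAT
Mmp16: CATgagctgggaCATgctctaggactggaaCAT
Mmp24: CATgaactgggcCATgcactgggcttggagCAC
Those of the Adamts members whose distribution over the cochlea is described most fully below were these.
Adamts2: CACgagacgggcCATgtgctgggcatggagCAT
Adamts6: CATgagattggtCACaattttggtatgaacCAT
Adamts9: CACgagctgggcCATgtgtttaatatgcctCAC
Adamts12: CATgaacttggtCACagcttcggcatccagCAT
Adamts17: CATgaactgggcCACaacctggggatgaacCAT

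All 30 protease genes of the set held the site once, and none of the 4 Adamtsl and 3 Timp genes did. The gene structure around it differed between the families. In all 11 Mmp genes the 33 bases lay unbroken in 1 coding exon, as at chr4:18051748-18051780 on the plus strand for Mmp16, chr8:93565907-93565939 on the plus strand for Mmp2 and chr2:155649347-155649379 on the plus strand for Mmp24. In all 19 Adamts genes an intron interrupted them, so that the site spread over 123 bases (Adamts10) to 33576 bases (Adamts17) of the genome. For Adamts6 it spanned chr13:104489355-104503317 on the plus strand, and for Adamts9 chr6:92882266-92885474 on the minus strand. RefSeq promoter windows (250 bases before to 50 after the gene's start, build GRCm38.p6) were at hand for 22 of the 37 genes, 23 windows in all. Mmp2, Mmp9 and Mmp16 were not among these 22. A motif of transcription factor AP-1, TGANTCA on either strand, was in 0 of these 23 windows and in 7.81% of 32851 windows of all genes. The 23 windows are too few to tell 0 from that share. The median GC content of the 23 windows was 67.0%, against 52.7% over all windows.

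After doublets were removed, 9777 nuclei of the Serpine2 cOE library (32275196 UMIs, median 2400 per nucleus) and 8250 of the control library (27064379 UMIs, median 2247.5) were kept, and 16 barcodes occurred in both. Serpine2 itself stood at 86.2 CPM (UMIs of a gene per 1000000 UMIs of its library or cluster) in the Serpine2 cOE library and 89.5 CPM in the control. In cluster 4, where Lgr5 was highest (775 and 736 CPM), Serpine2 stood at 230 and 184 CPM, a log2 ratio of 0.32 with a 95% interval of −0.10 to 0.76. Overexpression of the targeted gene was thus not shown by these counts; whether RNA from the recombined allele carries the counted 3′ sequence is not stated in the labels. The nuclei were grouped into 24 clusters without using the Mmp, Adamts, Adamtsl and Timp genes, and 12 clusters could be named from markers, always as "-like". In 9 clusters (5 to 13) the mesenchymal transcription factor Pou3f4 was at 94.2 CPM or more, and in the other 15 at 71.1 CPM or less; this division was made after its values were seen. The Pou3f4-high clusters held 62.6% of the Serpine2 cOE nuclei and 74.6% of the control nuclei. Cluster 12, shallow (median 908 UMIs) and led by Actb and ribosomal protein genes, held 124 Serpine2 cOE nuclei and 811 control nuclei.

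The set was compared between the Pou3f4-high clusters, which hold the mesenchyme-like and fibrocyte-like ones, and the Pou3f4-low clusters, which hold the epithelium-like, hair cell-like, supporting cell-like and macrophage-like ones. 9 genes were at least 2-fold higher in the Pou3f4-high than in the Pou3f4-low clusters in each library (Mmp2, Mmp11, Mmp16, Adamts4, Adamts10, Adamts12, Adamtsl3, Adamtsl5 and Timp1), and 10 were at least 2-fold higher in the Pou3f4-low clusters in each (Mmp24, Mmp28, Adamts2, Adamts6, Adamts15, Adamts16, Adamts17, Adamts18, Adamts19 and Adamtsl1). The other 18 fell in neither group. For 21 genes the highest cluster stood at 3 times the level of all kept nuclei or more. The same cluster was highest in both libraries for 24 of the 36 genes with at least 50 UMIs in the kept nuclei, and for 22 of the 29 with at least 200. The counts in this paragraph were not set against all genes, so they describe the set and do not mark it out.

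**Figure D1:**
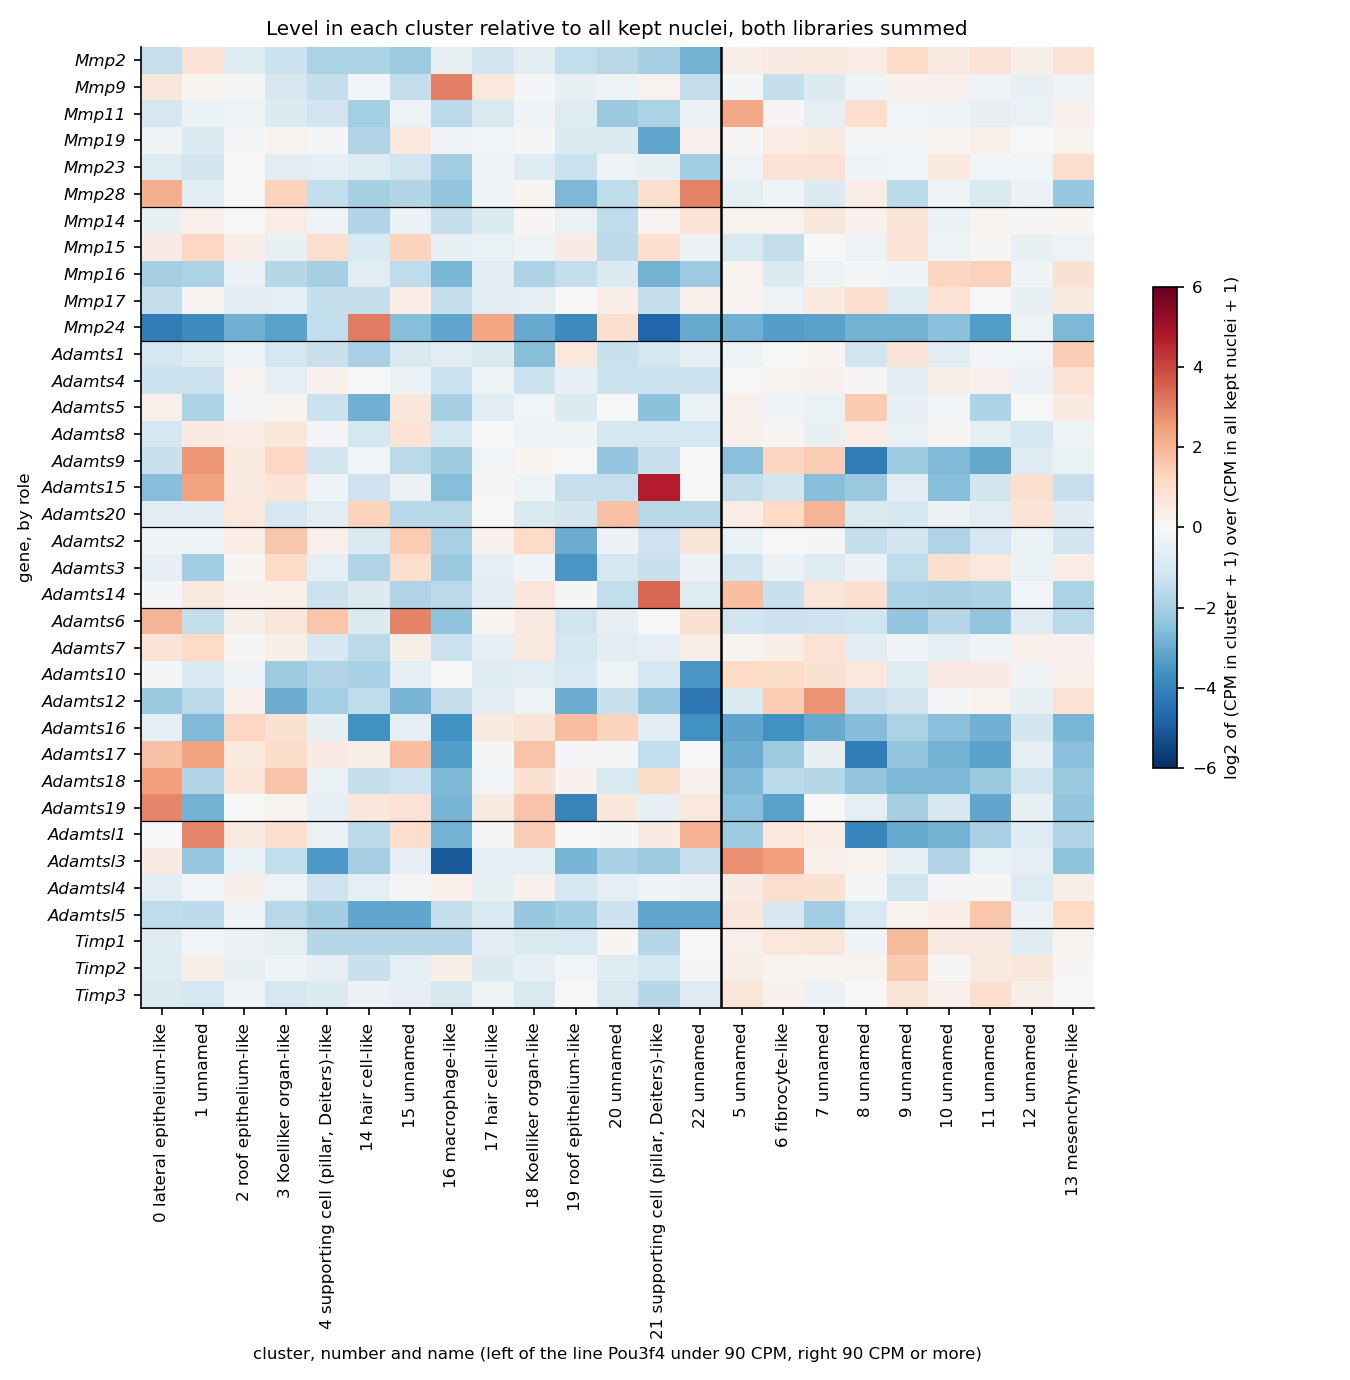
Level of 36 genes (rows, by role) in 23 clusters (columns), as the log2 of CPM + 1 in the cluster over CPM + 1 in all kept nuclei, both libraries summed; red is higher and blue lower. Mmp24 is red in the hair cell-like clusters 14 and 17, Adamts15 in cluster 21 and Mmp16 right of the line, where Pou3f4 is 90 CPM or more.

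Nuclear RNA still holds introns, and CPM was higher for longer genes: over the 37 genes the Spearman correlation of CPM with gene body length was 0.62, given as a description. Levels of different genes are therefore compared only per kilobase of gene body. On that scale Timp3 was highest at 6.36 CPM per kilobase, followed by Mmp14 at 2.95, Mmp2 at 2.78 and Mmp11 at 2.06. Mmp16, which had most UMIs of the proteases, came to 1.45 CPM per kilobase over its 273 kb, and Adamtsl1 to 0.368 over 914 kb. Adamtsl1 overlaps Sh3gl2, Timp2 overlaps Cep295nl and Mmp14 overlaps Gm56768 on the same strand in the annotation, so reads in the shared stretch cannot be told apart with certainty.

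Among the inhibitors, Timp3, which stays bound to the matrix, was found in every cluster. In all kept nuclei it stood at 280 CPM in the Serpine2 cOE library and 351 CPM in the control. It was highest in cluster 11 (unnamed, led by Opcml, Cbln4 and Tll2), at 579 and 673 CPM, then in cluster 9 at 475 and 601 CPM and in cluster 5 at 489 and 550 CPM. The lowest cluster was 21 (supporting cell-like) at 93.9 CPM over both libraries. Macrophage-like cluster 16, taken here as a rough guide to the level free RNA can give, was at 162 CPM. Whether the nuclei of cluster 16 make Timp3 themselves was not tested. The control library was thus the higher in each of the 3 clusters with most Timp3, and the low end of the range could not be told from free RNA. With each nucleus thinned to 1000 UMIs, 36.9% of Serpine2 cOE and 42.4% of control nuclei of cluster 11 held a Timp3 UMI, against 8.49% and 19.3% in the macrophage-like cluster (unthinned 56.2% and 63.1%, against 16% and 24.7%).

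Timp2, which besides inhibiting Mmp2 takes part in its activation by Mmp14, was at 85.0 and 90.3 CPM in all kept nuclei. Cluster 9 (unnamed, led by S100a16 and Ramp2) was the highest, at 247 CPM in the Serpine2 cOE library and 273 CPM in the control, followed by cluster 12 at 142 CPM over both. Timp1 was sparse, at 2.39 and 2.11 CPM (77 and 57 UMIs), and also highest in cluster 9, at 12.9 and 9.31 CPM (12 and 8 UMIs). Cluster 9 is shallow (median 1185 UMIs per nucleus) with ribosomal protein genes at 13.8% of UMIs in the Serpine2 cOE library. Although Pou3f4-high, it also had more of the epithelial marker Epcam than any other cluster, at 514 CPM over both libraries. At resolution 2, 591 of its nuclei fell in a cluster of median 822 UMIs with Epcam at 1119 CPM. How far these traits bear on the levels read in cluster 9 was not tested. Timp4 had too few UMIs to be described.

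Of the secreted Mmps, Mmp2 (gelatinase A) was higher on the Pou3f4-high side: 109 and 124 CPM in the Pou3f4-high clusters of the Serpine2 cOE and control libraries, against 33.3 and 35.1 CPM in the others. Its highest cluster was also cluster 9, at 158 and 163 CPM, and cluster 1 (unnamed, Pou3f4-low, led by Trdn, Rspo2 and Otoa) stood close by at 128 and 133 CPM. Mmp11 (stromelysin 3) was highest in cluster 5 (unnamed, with Hoxaas2 and Rarres1 among its leading genes), at 110 and 168 CPM, 5.02 times its level in all kept nuclei. Mmp28 (epilysin) was the one secreted Mmp at least 2-fold higher on the Pou3f4-low side. It reached 213 CPM over both libraries in cluster 22 (unnamed, led by Prdm12 and Pkp1) and 124 CPM in lateral epithelium-like cluster 0, with 3.22 CPM in roof epithelium-like cluster 19. Mmp9 (gelatinase B) had 69 and 34 UMIs in all and was highest in the macrophage-like cluster, at 37.1 CPM (8 UMIs) and 7.86 CPM (2 UMIs). Mmp19 reached at most 12.4 CPM (cluster 15). Mmp23, only grouped here with the secreted Mmps, reached at most 7.25 CPM (cluster 13).

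Mmp16 (MT3-MMP), a membrane-type protease, gave 343 CPM in the Serpine2 cOE library and 459 CPM in the control. Its 3 highest clusters were all Pou3f4-high: cluster 11 at 959 and 1078 CPM, cluster 10 (unnamed, led by Gas2l3 and Tnfaip6) at 910 and 1055 CPM, and mesenchyme-like cluster 13 at 701 and 789 CPM. In the macrophage-like cluster it was at 60.2 and 55.0 CPM. Mmp14 (MT1-MMP), which activates proMmp2, was spread more evenly, from 11.7 CPM in cluster 14 to 74.0 CPM in cluster 22, and its highest cluster differed between the libraries.

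Mmp24 (MT5-MMP), known from neurons, was highest in the hair cell-like clusters. In cluster 14 (led by Tafa3 and Fgf8, an inner hair cell gene) it was at 250 CPM (123 UMIs) in the Serpine2 cOE library and 192 CPM (37 UMIs) in the control, and in cluster 17 (led by Pdzph1 and Slc26a5, the outer hair cell motor protein prestin) at 150 and 126 CPM. Cluster 20 (unnamed, led by Nrg3 and Cdh9; 58 and 33 nuclei) came next at 69.4 CPM (39 UMIs) and 16.3 CPM (4 UMIs), then cluster 12 with 0 and 22 UMIs, where hair cell markers summed to 531 and 1400 CPM. The macrophage-like cluster had 2.13 CPM. Cluster 17 fell at a finer resolution into a subcluster of deep barcodes (median 16114.5 UMIs) and one of median 5281 UMIs. Mmp24 was at 83.1 and 78.0 CPM in the first and at 280 and 253 CPM in the second. The log2 ratio was 0.38 (−0.16 to 0.95) in cluster 14, which had 69 and 20 nuclei, 0.09 (−0.17 to 0.35) in the first subcluster and 0.15 (−0.07 to 0.36) in the second, so a difference between the libraries was not detectable at this depth in any of the 3.

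**Figure D2:**
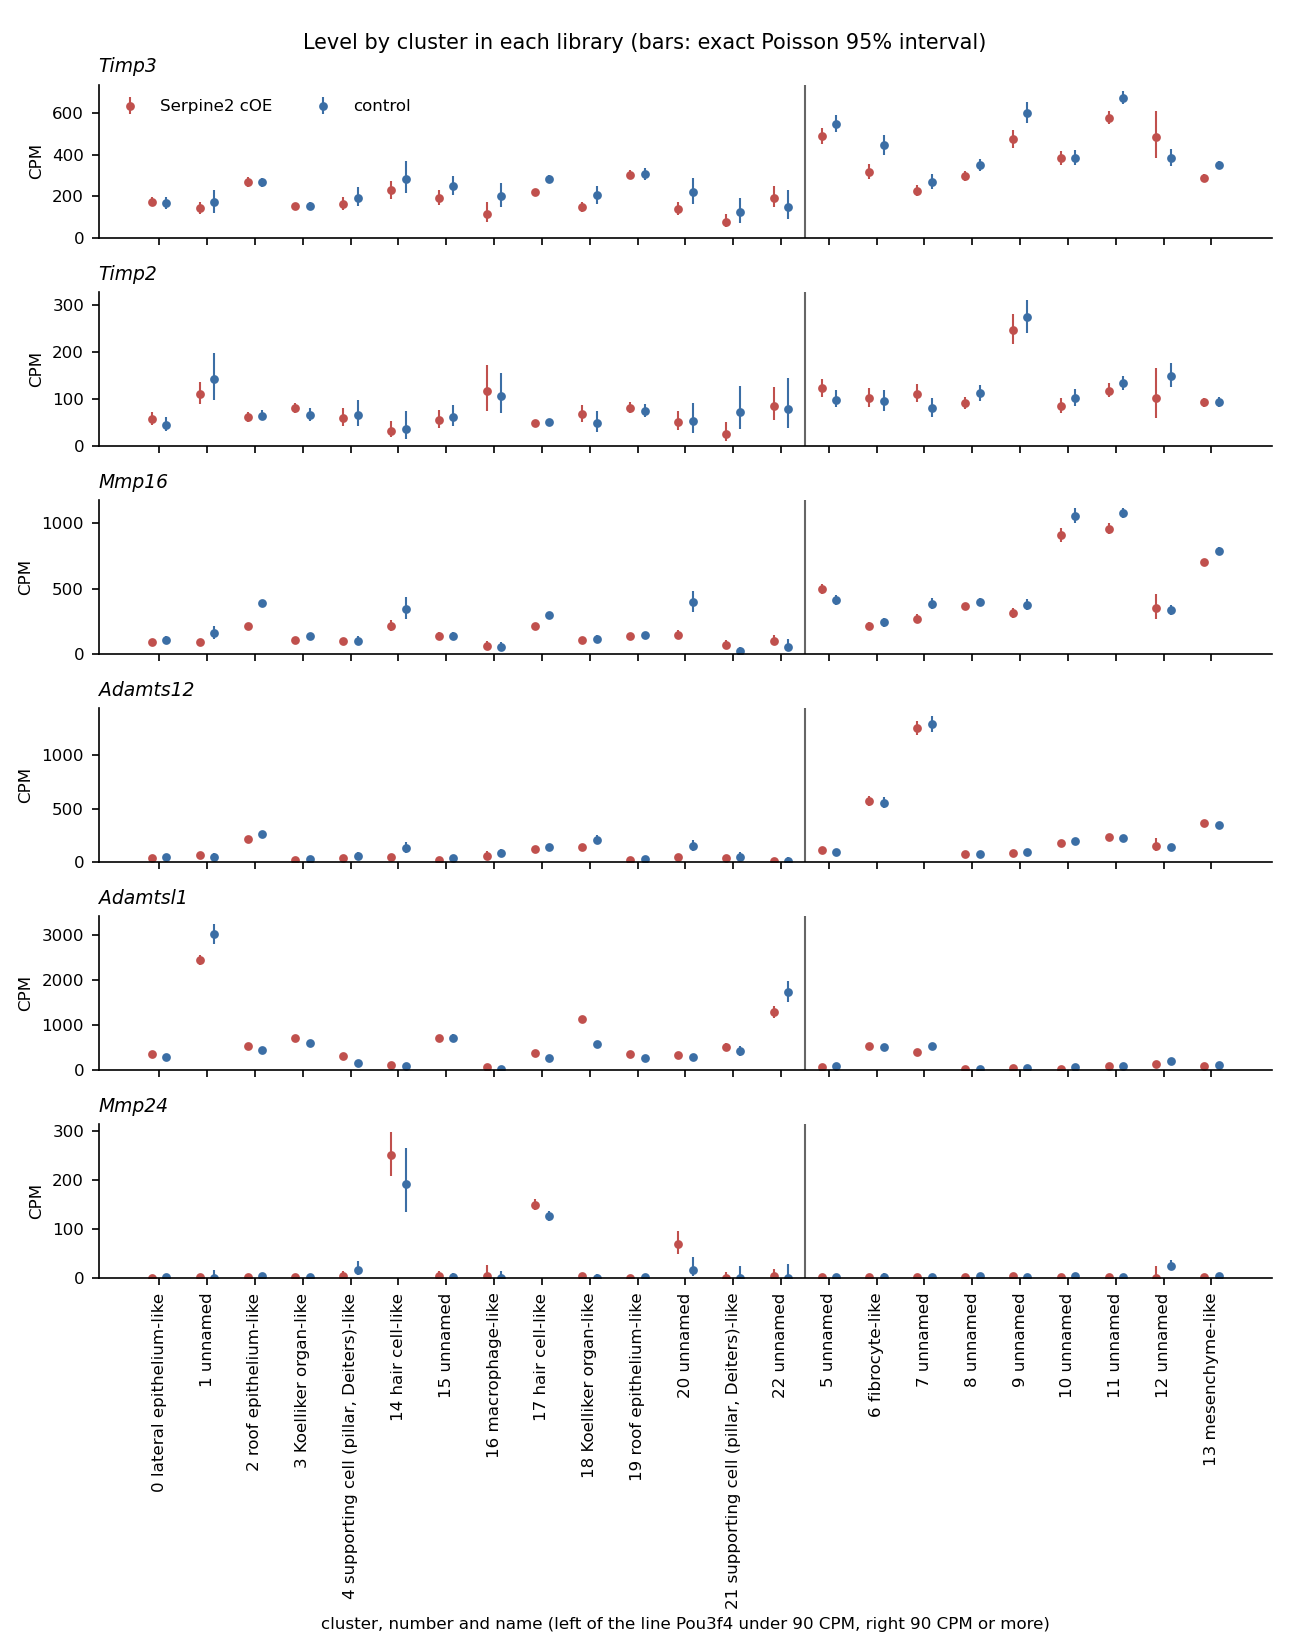
CPM of 6 genes in each of 23 clusters (x axis) in the Serpine2 cOE library (red) and the control library (blue), with exact Poisson 95% intervals; the vertical line separates clusters with Pou3f4 under 90 CPM (left) from those at or above it. Timp3 is present throughout, Mmp16 and Adamts12 peak on the right, Adamtsl1 in cluster 1 and Mmp24 in clusters 14 and 17.

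Of the Adamts proteases of hyalectans, Adamts9, Adamts15 and Adamts1 each had a different highest cluster, the same in both libraries. Adamts9 was highest in cluster 1, at 435 CPM in the Serpine2 cOE library and 721 CPM in the control, and second in cluster 7 (unnamed, led by Hhip, Gria1 and Runx2) at 223 CPM over both. Adamts15 was the most restricted gene of the set by the ratio of its highest cluster to all kept nuclei: it was at 138 and 182 CPM in cluster 21 (supporting cell-like, led by Sez6l, Sapcd2 and Trpv6), a ratio of 31.8 over both libraries, with 29.8 CPM in the next cluster. Adamts5 (aggrecanase 2) was highest in cluster 8 (unnamed, with Aldh1a7 and Notum) at 85.9 CPM over both libraries and Adamts1 in the mesenchyme-like cluster at 41.5 CPM. Adamts4, Adamts8 and Adamts20 reached at most 3.42, 2.67 and 12.3 CPM in any cluster used. For these 3 and for Adamts5 the highest cluster was not the same in both libraries.

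The procollagen N-proteinases had their highest clusters on the Pou3f4-low side. Adamts2 was at 443 CPM in Koelliker organ-like cluster 3, 408 CPM in cluster 15 (unnamed, led by Trpa1, Syt6 and Car10) and 17.1 CPM in cluster 19. Adamts3 had the same leading pair, at 163 and 153 CPM over both libraries. Cluster 3 was its highest in the Serpine2 cOE library and cluster 15 in the control. Summed over each side, Adamts3 was at 78.1 and 84.0 CPM in the Pou3f4-high clusters of the Serpine2 cOE and control libraries. In the Pou3f4-low clusters it was at 68.1 and 66.6 CPM. Adamts14 shared cluster 21 with Adamts15, at 105 CPM over both libraries. In the whole tissue Adamts2 was at 139 and 142 CPM and Adamts3 at 72.5 and 75.3 CPM, so the libraries were close.

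The remaining Adamts genes covered both sides. Adamts12 was highest in Pou3f4-high clusters, at 1254 and 1292 CPM in cluster 7 and 568 and 554 CPM in fibrocyte-like cluster 6. Adamts6 was highest in cluster 15, at 966 and 1127 CPM, then in lateral epithelium-like cluster 0 at 498 and 618 CPM and in supporting cell-like cluster 4 at 390 and 452 CPM. Adamts19 led in cluster 0, at 796 and 899 CPM, as did Adamts18 at 26.0 and 49.7 CPM. Adamts17 was highest in cluster 1 at 639 CPM over both libraries and in cluster 15 at 431 CPM. Adamts16 was highest in cluster 19 at 43.1 CPM. In the Pou3f4-high clusters Adamts16 and Adamts18 were close to 0, at 0.922 and 1.02 CPM and at 0.354 and 0.510 CPM in the 2 libraries. Adamts13, which cuts von Willebrand factor, had 22 UMIs in each library and was not compared.

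Adamtsl1 (punctin) was highest in cluster 1, at 2442 and 3025 CPM, then in cluster 22 at 1279 and 1727 CPM and in Koelliker organ-like cluster 18 at 1124 and 578 CPM. After thinning, 74.7% of Serpine2 cOE and 70.9% of control nuclei of cluster 1 held an Adamtsl1 UMI, against 3.77% and 2.96% in the macrophage-like cluster (unthinned 87.2% and 85.0%, against 6.72% and 5.19%). Adamtsl3 lay at the other side, at 215 CPM in cluster 5 and 181 CPM in cluster 6, and Adamtsl5 at 26.0 CPM in cluster 11. Adamtsl4, tied to microfibrils, was highest in cluster 6 at 33.2 CPM and lowest in cluster 4 at 5.89 CPM.

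Likeness of pattern was measured by Pearson's r of log2(CPM + 1) over 23 clusters, for the 406 pairs among the 29 genes with at least 200 UMIs. The clusters share libraries and free RNA and differ in depth, so r is a description. The most alike pair was Mmp16 with the inhibitor Timp3 (r = 0.84), followed by Adamtsl1 with Adamts17 (0.81), Mmp16 with Adamtsl5 (0.80) and Adamtsl1 with Adamts9 (0.77). Mmp2 was like its regulator Timp2 (0.76), and Adamts6 like Adamts19 (0.73). Mmp2 and Adamts6 were the least alike (−0.74).

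Between the libraries, the whole-tissue levels of the set lay close together. Of 36 genes tested, 1 was at least 1.5-fold higher in the Serpine2 cOE library and 1 at least 1.5-fold lower, where 3.94% and 4.58% of the 18240 genes with at least 50 UMIs were. The median log2 ratio over the 36 genes was 0.004, against 0.009 over all genes, and 18 of the 36 lay above 0. The higher one was Mmp9, at 2.14 CPM (69 UMIs) against 1.26 CPM (34 UMIs), a log2 ratio of 0.77 (0.15 to 1.40). The lower one was Adamtsl5, at 6.10 CPM (197 UMIs) against 9.27 CPM (251 UMIs), a log2 ratio of −0.60 (−0.88 to −0.33). No Timp was 1.5-fold apart: the log2 ratio was −0.32 for Timp3 (−0.37 to −0.28), −0.09 for Timp2 (−0.17 to −0.01) and 0.18 for Timp1 (−0.33 to 0.70).

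**Figure D3:**
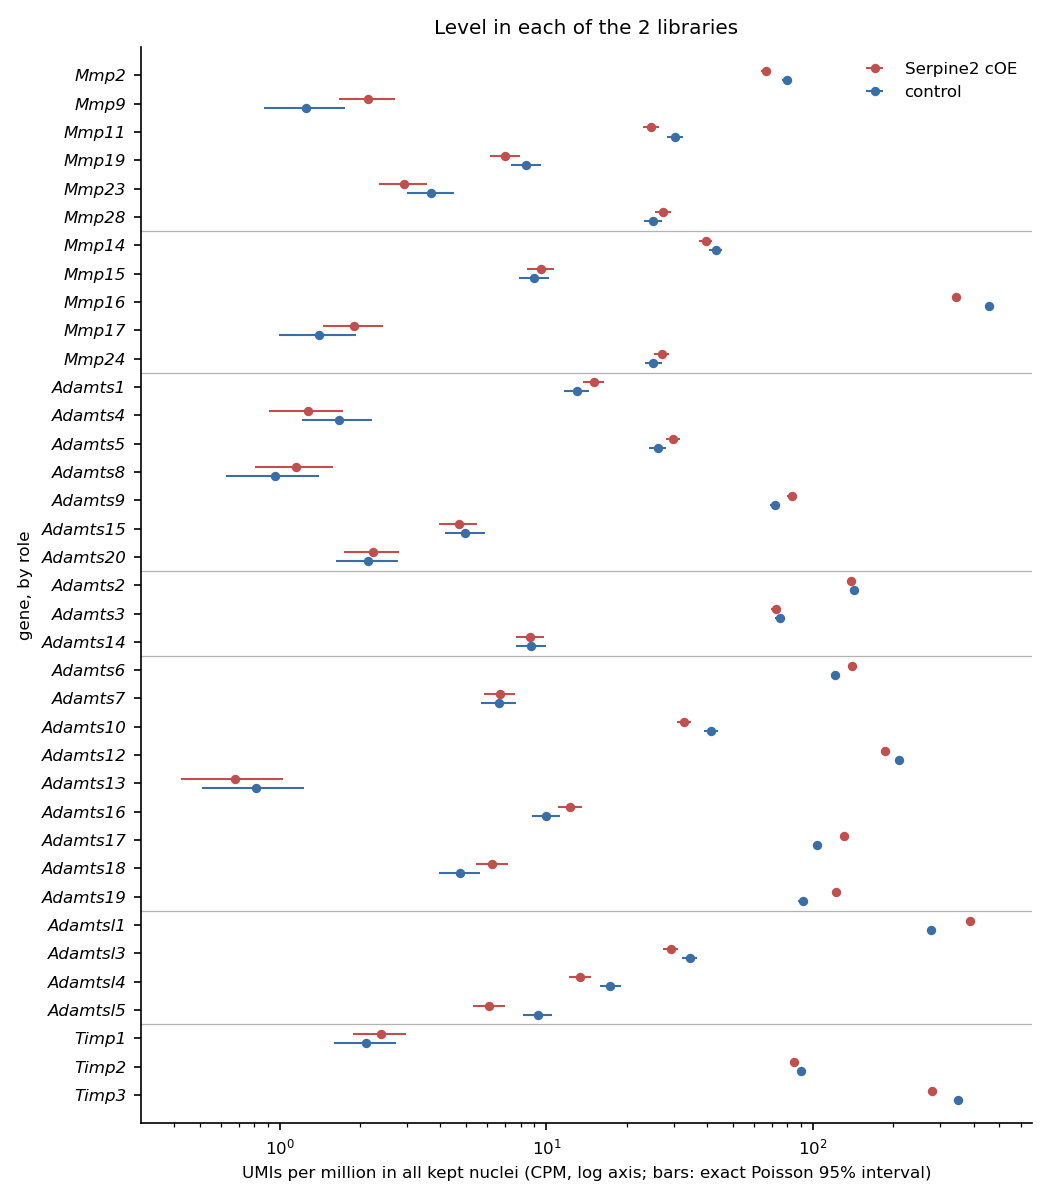
CPM of the 37 genes in all kept nuclei of the Serpine2 cOE library (red) and the control library (blue) on a log axis, with exact Poisson 95% intervals, grouped by role. Mmp9 (2.14 and 1.26 CPM) and Adamtsl5 (6.10 and 9.27 CPM) are the 2 genes 1.5-fold or more apart.

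The ratios sorted by compartment. The 9 genes higher in Pou3f4-high clusters had a median log2 ratio of −0.29 and 8 of them lay below 0, while the 10 genes higher in Pou3f4-low clusters had a median of 0.25 and 8 of them lay above 0. The Serpine2 cOE library held fewer nuclei of the Pou3f4-high clusters, as given above. CPM rest on UMIs, and of these the Pou3f4-high clusters held 43.7% in the Serpine2 cOE library and 50.7% in the control. In summed tissue a change in cell numbers and a change in RNA per cell cannot be told apart. Each cluster was therefore also given the same weight in both libraries. At these weights the ratio was closer to 0 for 25 of the 36 genes, and the medians were −0.24 for the 9 genes and 0.10 for the 10 genes. The counts by compartment and of ratios closer to 0 were not set against all genes and are a description. Adamtsl1, at 386 and 277 CPM, went from 0.48 to 0.15. Adamts17, at 131 and 104 CPM, went from 0.33 to 0.04, and Mmp16 from −0.42 to −0.24. Adamtsl5 went to −0.36 and no gene was 1.5-fold lower, against 4% of all genes. Mmp9 alone was 1.5-fold higher, at 0.92, against 3.06% of all genes.

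**Figure D4:**
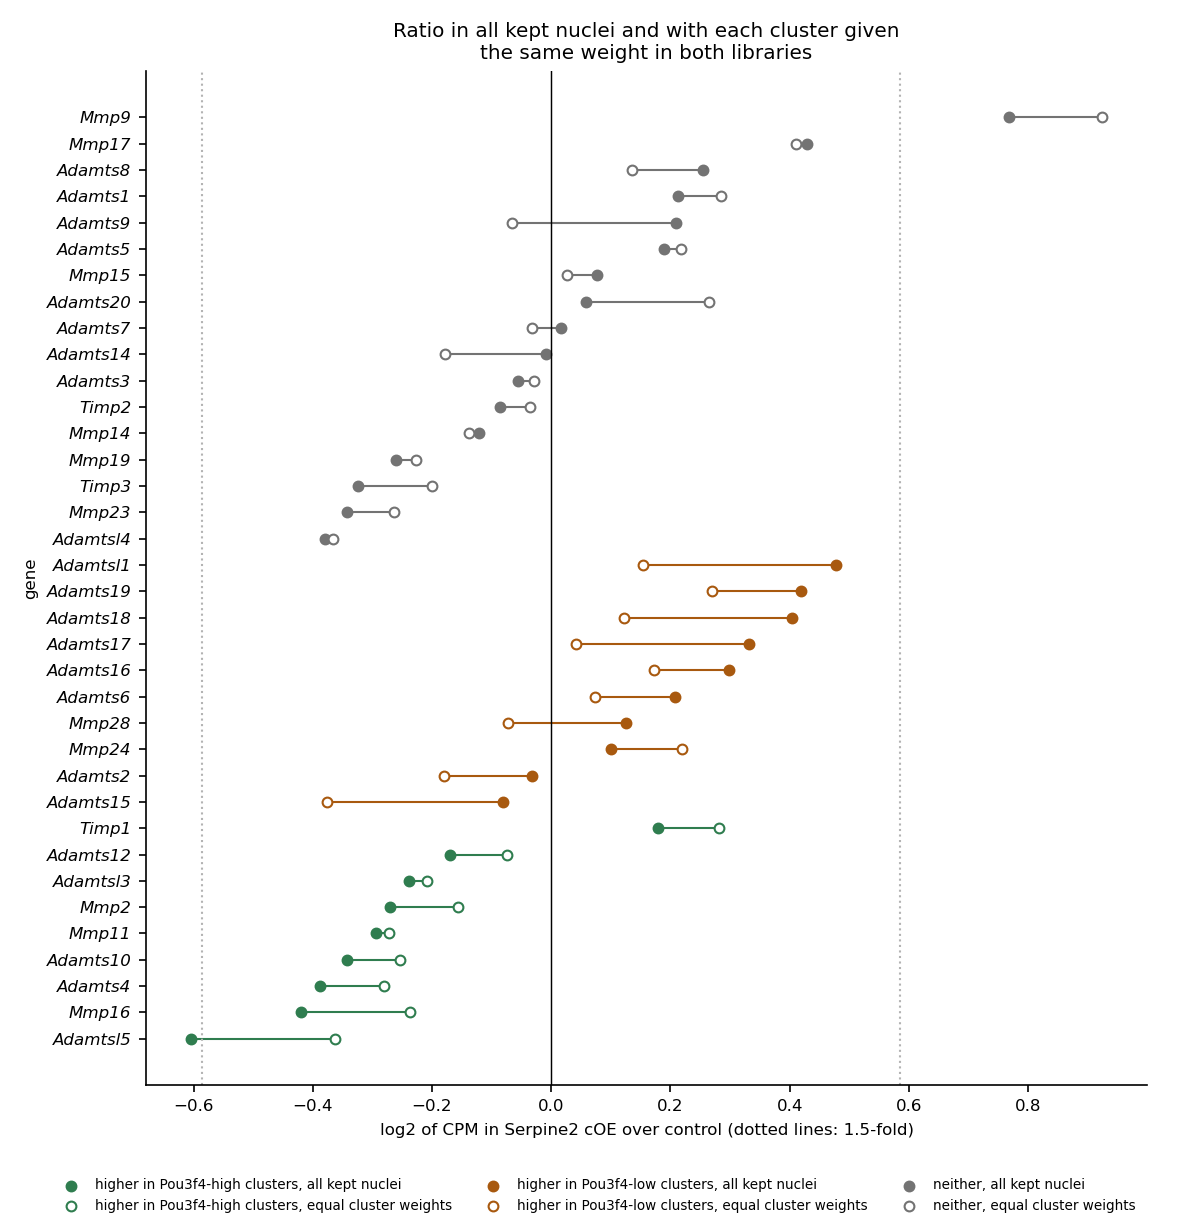
log2 of CPM in the Serpine2 cOE library over the control for 36 genes, in all kept nuclei (filled) and with each cluster at the same weight in both libraries (open), coloured by compartment; dotted lines mark 1.5-fold. Most open points lie nearer to 0 than the filled ones, and Mmp9 alone lies beyond 1.5-fold at equal weights.

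In the macrophage-like cluster, where Mmp9 had 8 and 2 UMIs, markers of other leukocytes were also higher in the Serpine2 cOE library; the list includes the neutrophil genes S100a8 and S100a9. There 5 of its 9 markers were detected, with a summed level of 431 CPM in the Serpine2 cOE library and 47.1 CPM in the control. S100a9 had 57 and 6 UMIs there and S100a8 34 and 5, while Cd79a, Itgax, Ms4a1 and Cpa3 were at 0 in both. Macrophage markers in that cluster were at 5707 and 5966 CPM. More Mmp9 UMIs came from hair cell-like cluster 17, with 21 UMIs in 7 nuclei against 8 UMIs in 6 nuclei (4.81 and 1.80 CPM). In cluster 17, 8 of the 9 markers of other leukocytes were detected, but at only 2.75 and 2.25 CPM in sum, and the 9 macrophage markers were lower in the Serpine2 cOE library, at 104 and 156 CPM (Mrc1 with 90 and 198 UMIs). The subcluster of deep barcodes held 21 and 6 of the Mmp9 UMIs, and the other subcluster 0 and 2. The part of other cells in the Mmp9 difference was not tested.

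Within clusters, 19 were compared, those with at least 50 nuclei in each library. Pairs of gene and cluster with at least 20 UMIs, a 1.5-fold difference and a counting interval that leaves out a ratio of 1 numbered 43, of which 19 were higher in the Serpine2 cOE library and 24 lower, over 22 genes and 15 clusters. Of the 403 pairs of the set with at least 20 UMIs these are 4.71% and 5.96%, where 3.85% and 3.65% of such pairs over all genes passed the same rule. The genes share nuclei and libraries, so the shares are a description. The counts of genes per cluster given below use genes with at least 50 UMIs in that cluster and the fold alone, as does the background, so a pair with fewer UMIs can be named without being counted.

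Adamtsl1 was among the 43 pairs in 4 clusters (4, 10, 12 and 18). In cluster 10, where 31 of its 76 control UMIs came from 1 nucleus, the log2 ratio of −0.90 was −0.45 without the nucleus holding most UMIs in each library and −0.38 with each nucleus weighted equally, both under 1.5-fold. In Koelliker organ-like cluster 18 (led by Kcnq5, Slc16a11 and P4ha2) it was at 1124 CPM (978 UMIs in 148 nuclei) in the Serpine2 cOE library and 578 CPM (249 UMIs in 66 nuclei) in the control, a log2 ratio of 0.96 (0.76 to 1.17). It was the 1 of 13 genes tested there that was 1.5-fold higher, against 8.79% of all genes, and 0 were lower, against 6.01%. Adamts16, with too few UMIs in cluster 18 to be counted, is also among the 43 pairs. It had 23 UMIs in the Serpine2 cOE library and 3 in the control (1.92, 0.20 to 4.30). In supporting cell-like cluster 4, where Lgr5 was highest, Adamtsl1 was at 318 CPM (206 UMIs in 42 nuclei) and 151 CPM (56 UMIs in 22 nuclei). The log2 ratio was 1.07 (0.64 to 1.52). Adamtsl1 was again the 1 of 9 genes tested that was higher (6.68% of all genes), with 0 lower (5.11%). Adamts9, with too few UMIs in cluster 4 to be counted, is the other of the 43 pairs there. It had 29 and 6 UMIs (1.46, 0.17 to 3.02). In cluster 1, its main site, Adamtsl1 had a log2 ratio of −0.31 (−0.43 to −0.18), and in cluster 22, which had 82 and 33 nuclei and is not among the 19, of −0.43 (−0.68 to −0.19). The direction thus differed between its clusters. In cluster 18 the summed markers of melanocytes were at 136 and 286 CPM and those of fibrocytes at 168 and 244 CPM, and in cluster 4 those of macrophages at 41.6 and 103 CPM; their part in the result was not tested.

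Roof epithelium-like cluster 2 (led by Vit, Dkk2 and Iqcj) held most pairs, 9. Adamts19 was at 159 CPM (333 UMIs) in the Serpine2 cOE library and 70.7 CPM (171 UMIs) in the control, a log2 ratio of 1.17 (0.90 to 1.45). Adamts6 was at 217 and 123 CPM, a log2 ratio of 0.82 (0.61 to 1.04). Mmp16 went the other way, at 211 CPM (441 UMIs) and 388 CPM (938 UMIs), a log2 ratio of −0.88 (−1.05 to −0.71). Adamtsl3, Adamts10 and Mmp11 were also lower, with log2 ratios of −1.19, −1.04 and −0.84, and so were Adamts15 and Adamtsl5 (7 against 27 and 6 against 23 UMIs). That makes 2 of 22 genes higher and 4 lower, where 5.88% and 8.55% of all genes were. Of the 6 genes named as lower there, 5 are among the 9 genes of the Pou3f4-high side (Adamts15 is not). The 3 named as higher (Adamts18 with 31 and 14 UMIs is the third) are all among the 10 of the Pou3f4-low side. These lists come from the same libraries and the overlap was not set against all genes, so it is a description. Summed markers of other cells also differed between the libraries in cluster 2. There 11 of 11 mesenchyme markers summed to 817 and 1226 CPM and 9 of 9 macrophage markers to 104 and 206 CPM. The 8 of 8 endothelial markers summed to 177 and 327 CPM, and 9 of 9 Koelliker organ markers to 2556 and 1659 CPM. The nuclei of cluster 2 were deep (median 9280 UMIs). The part of other cells in these ratios was not tested.

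Cluster 5 had 0 of 16 genes higher and 5 lower, where 4.26% and 3.78% of all genes were. Mmp14 was at 31.4 CPM (45 UMIs) in the Serpine2 cOE library and 67.4 CPM (82 UMIs) in the control, a log2 ratio of −1.10 (−1.66 to −0.56). Mmp11, in its main site, was at 110 and 168 CPM (−0.61), Adamts10 at 67.7 and 105 CPM (−0.64) and Adamts14 at 25.1 and 41.1 CPM (−0.71). In the finer cluster that took the largest share of these nuclei at resolution 2 (414 of them), Adamts14 was at −0.089 and Mmp11 at −0.45, both under 1.5-fold. The one gene named there in the other direction was Adamts9, with 27 and 7 UMIs (1.71, 0.48 to 3.16). In cluster 5, 11 of 11 mesenchyme markers summed to 2806 and 3229 CPM and 9 of 9 Koelliker organ markers to 327 and 215 CPM; their part in these ratios was not tested.

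Adamts9 was lower in cluster 1, its main site, at 435 CPM (348 UMIs) in the Serpine2 cOE library and 721 CPM (173 UMIs) in the control, a log2 ratio of −0.73 (−0.99 to −0.46). In that cluster 0 of 11 genes were higher and 2 lower, where 13.1% and 7.4% of all genes were, and the second was Mmp16 at 88.8 and 158 CPM. The 5 interdental markers summed to 2242 and 3208 CPM in cluster 1, which held 297 and 80 nuclei; their part in the result was not tested. In lateral epithelium-like cluster 0 Adamts9 was at 39.8 and 16.2 CPM (1.30, 0.40 to 2.31), and 2 of 18 genes were higher and 3 lower there, where 6.27% and 5.13% of all genes were. The 5 interdental markers were also higher in cluster 0, at 911 and 532 CPM in sum (0.78, 0.61 to 0.94). In clusters 4 and 5, where Adamts9 was also higher (1.46 and 1.71), their summed log2 ratios were only 0.05 (−0.05 to 0.16) and 0.12 (0.01 to 0.23). The part of interdental RNA in the Adamts9 ratios was not tested. The one Timp pair among the 43 was Timp3 in the macrophage-like cluster, at 116 CPM (25 UMIs) and 200 CPM (51 UMIs), a log2 ratio of −0.79 (−1.54 to −0.07), and 0 of 2 genes tested there were higher (8.57% of all genes) and 1 was lower (9.23%).

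In 5 of the 19 clusters none of the genes with at least 50 UMIs there was 1.5-fold apart in either direction. These were cluster 6 (15 genes; 6.18% of all genes higher and 4.64% lower), cluster 8 (18 genes; 4.6% and 3.69%), cluster 9 (8 genes; 6.26% and 4.5%), cluster 15 (10 genes; 7.35% and 4.55%) and cluster 19 (17 genes; 5.62% and 4.5%). In 2 of them a gene with fewer UMIs is among the 43 pairs: Adamts1 in cluster 8, with 18 and 5 UMIs (1.52, 0.04 to 3.30), and Adamts12 in cluster 15, with 11 and 20 UMIs (−1.16, −2.37 to −0.03). In cluster 7, 1 of 16 genes was higher (6.73% of all genes), Adamts19 at 132 and 82.0 CPM, and 2 were lower (4.38%), among them Adamts17 at 67.9 and 112 CPM. In cluster 10, 2 of 15 were higher (4.9%), Adamts6 and Adamts19 with log2 ratios of 0.63 and 0.73, and 1 was lower (3.97%). In cluster 11, 2 of 19 were higher (3.96%), Adamts6 and Adamts17, and 0 lower (3.57%). Adamts17 in cluster 11 is not among the 43 pairs, as its counting interval takes in a ratio of 1. Adamts6 and Adamts19 were thus higher in more than one Pou3f4-high cluster, at levels far below those of their main clusters. Epithelial markers were higher in the same clusters, but not in these alone. Epcam was at 220 and 107 CPM in cluster 7 (log2 ratio 1.04), 224 and 106 CPM in cluster 10 (1.08) and 254 and 113 CPM in cluster 11 (1.17). It was also higher in clusters 6 (0.96), 8 (0.94) and 13 (1.18), where none of the genes with at least 50 UMIs was 1.5-fold higher. In macrophage-like cluster 16 the Epcam ratio was 1.07, in cluster 3 0.004, and in clusters 20 and 21 −0.13 and −0.11. The 7 roof epithelium markers had log2 ratios of 0.76, 0.43 and 0.68 in clusters 7, 10 and 11, and the 12 supporting cell markers of 0.65, 0.53 and 0.50; their part in these ratios was not tested. With each nucleus weighted equally, Adamts6 was at 0.53 in cluster 10 and 0.57 in cluster 11, both under 1.5-fold. So were Adamts19 at 0.57 and Adamts17 at −0.51 in cluster 7. In the finer clusters that took the largest share of clusters 10 and 11 at resolution 2, Adamts6 was at 0.53 and 0.52, also under 1.5-fold. In cluster 3, 0 of 21 were higher (6.32%) and 1 lower (4.4%), Adamts12 at 19.5 and 32.1 CPM (−0.71, and −0.46 with each nucleus weighted equally). In cluster 13, the largest, 0 of 23 were higher (4.29% of all genes) and 1 was lower (3.49%). In hair cell-like cluster 17, 0 of 24 were higher (3.64%) and 1 was lower (4.81%), Adamtsl3 at 16.3 and 25.4 CPM. Cluster 12 rests on 124 Serpine2 cOE nuclei: of 11 genes 1 was higher (10.7%) and 3 were lower (18.5%), among them Adamts2 with 6 and 106 UMIs.

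**Figure D5:**
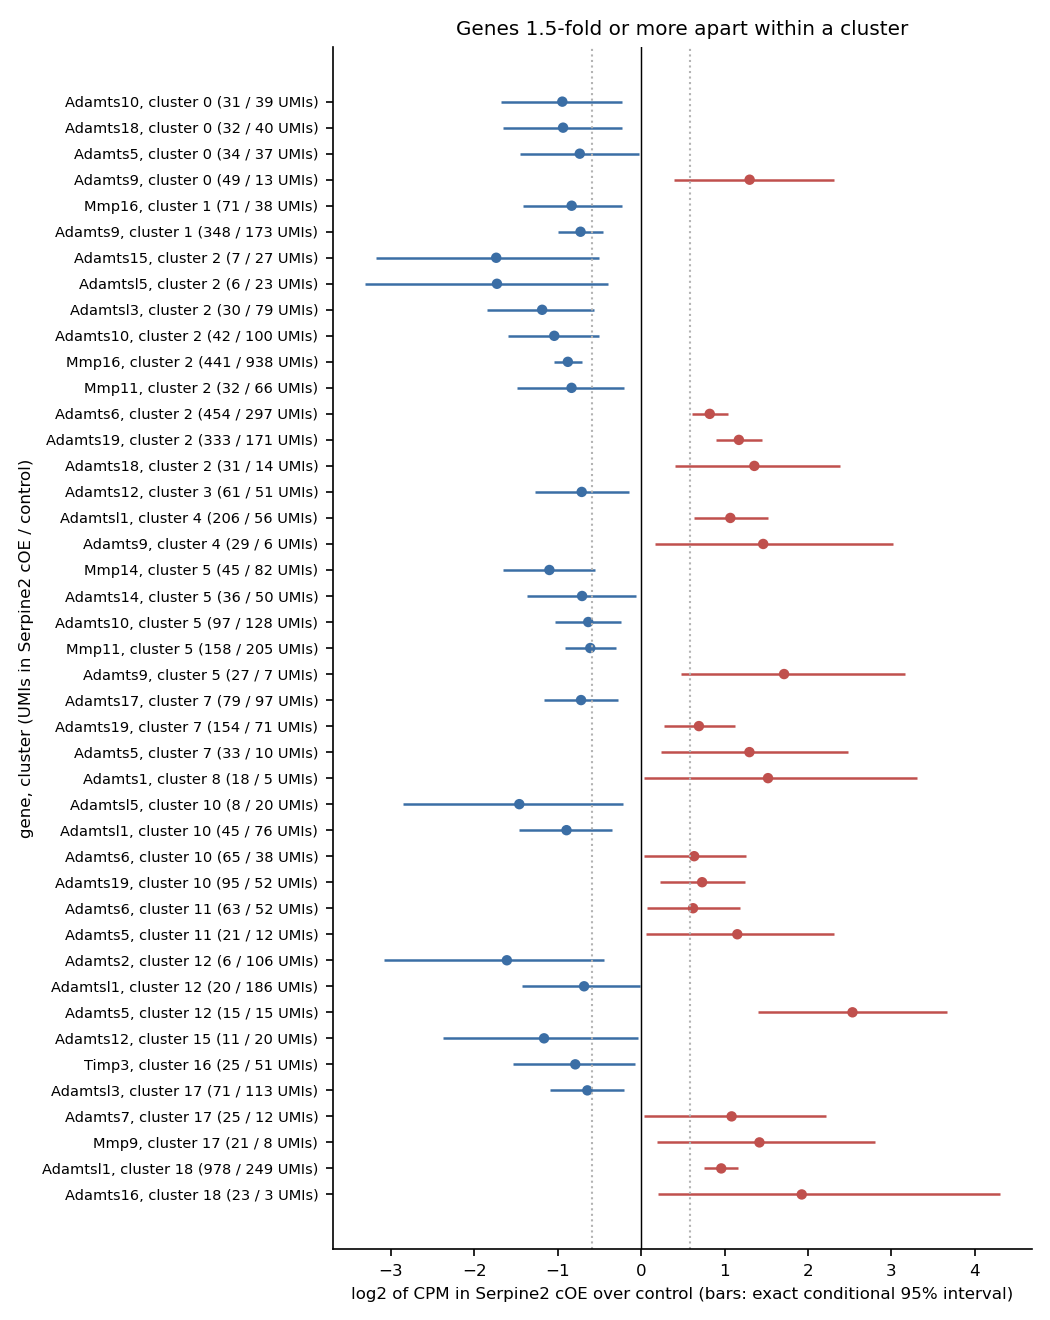
log2 ratio of CPM in the Serpine2 cOE library over the control for the 43 pairs of gene and cluster that were 1.5-fold or more apart, with exact conditional 95% intervals that cover counting error only; red is higher and blue lower in Serpine2 cOE. Mmp16 in cluster 2 lies at −0.88 and Adamtsl1 in cluster 18 at 0.96, both with narrow intervals.

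Genes around the set were read from lists of regulators, substrates and related proteases, in all kept nuclei, where 3.94% of all genes were 1.5-fold higher and 4.58% lower. Of 22 regulators 19 were tested, 2 were 1.5-fold higher and 1 lower. Bsg (basigin, an inducer of Mmps) was at 221 CPM in the Serpine2 cOE library and 147 CPM in the control (log2 ratio 0.59), and Spock3 (a testican) at 129 and 71.3 CPM (0.85). Plg had 26 and 39 UMIs (−0.84). Reck, a membrane-bound Mmp inhibitor, was at 59.2 and 65.0 CPM (−0.14). Of 25 matrix substrates 23 were tested, 0 were higher and 1, Col1a1 at 12.8 and 20.0 CPM (−0.64), was lower, with a median log2 ratio of −0.19. Of 19 other metzincins 18 were tested, 0 were higher and 2 lower: Adam33 at 2.14 and 3.66 CPM (−0.77) and Tll2, a tolloid-like procollagen proteinase, at 15.5 and 28.9 CPM (−0.90). Tll2 was highest in cluster 11, the main site of Mmp16 and Timp3. Spock3 was highest in cluster 20, at 3933 CPM over both libraries, with 221 CPM in the next cluster. With each cluster at the same weight in both libraries, Spock3 was at 0.48, Col1a1 at −0.57 and Adam33 at −0.56, all under 1.5-fold. Bsg (0.64), Plg (−1.11) and Tll2 (−0.66) stayed past it.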

How the data were processed

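Nuclei were profiled with 10x Genomics 3′ v3.1 chemistry, per the series' design text. The deposited values are whole-number UMI counts per gene and barcode from the authors' run of Cell Ranger 8.0.1, a version the file headers give; Cell Ranger and STAR are named in the submitters' processing notes. The design text gives the genome as GRCm39 and the notes as mm10, so no coordinate was taken from the files. How introns were counted is not given in the sources used here.

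Barcodes with at least 500 genes and up to 5% mitochondrial UMIs were used. Scrublet's own threshold marked 0% of barcodes in either library, so the highest-scoring 0.8% per 1000 barcodes were removed (9.61% and 7.85%). Nuclei were clustered with scanpy 1.11.5 (3000 variable genes, 50 components, 15 neighbours, Leiden resolution 1), leaving out the genes described, Serpine2, Lgr5, and sex-linked, mitochondrial, ribosomal and haemoglobin genes. A cluster was named from 3 or more markers found in at least 10% of its nuclei and 2-fold higher there, outnumbering the next list by 1.5 times; names are rebuilt, not the authors'. CPM are UMIs summed per library over all genes. With 1 library per group no test was made: levels have exact Poisson 95% intervals, ratios exact conditional ones, and free RNA was not subtracted. Genes were named when most abundant in a cluster, 3-fold above all nuclei, a Timp, or 1.5-fold apart with an interval excluding 1 on at least 20 UMIs. The genes and lists were chosen with earlier results of these data known. Counting was tested on simulated data. Deposited barcodes numbered 12014 (40429121 UMIs) and 9820 (31158971 UMIs). Alternatives covered filters, doublets, thinning, TMM factors (edgeR 4.0.16), weights, UMI minimum and resolution.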

Additional observations from a re-analysis of the deposited data

Results flagged for a closer look

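4 genes had opposite directions in at least 2 clusters, each past 1.5-fold with a counting interval that leaves out a ratio of 1. The difference between the clusters was not tested, and there is 1 library per group. Adamtsl1 had a log2 ratio of Serpine2 cOE over control of 1.07 in supporting cell-like cluster 4 and of −0.90 in cluster 10, where 31 of its 76 control UMIs came from 1 nucleus. Without the nucleus with most UMIs in each library the ratio in cluster 10 was −0.45 and with each nucleus weighted equally −0.38, both under 1.5-fold, so the opposite direction of Adamtsl1 past that fold was lost in cluster 10. Adamtsl1 was also higher in cluster 18 (0.96) and lower in cluster 12 (−0.68, 20 and 186 UMIs). In cluster 12 the ratio was −1.21 without those nuclei and −1.16 with each nucleus weighted equally. At resolution 2 it was −0.56, under 1.5-fold. Adamts9 had a log2 ratio of 1.71 in cluster 5 (27 and 7 UMIs) and of −0.73 in cluster 1, its main site (348 and 173 UMIs). It was also higher in cluster 0 (49 and 13 UMIs, 1.30) and cluster 4 (29 and 6 UMIs, 1.46). Adamts18 had a log2 ratio of 1.36 in roof epithelium-like cluster 2 (31 and 14 UMIs) and of −0.94 in lateral epithelium-like cluster 0 (32 and 40 UMIs). Adamts5 had a log2 ratio of 2.53 in cluster 12 (15 and 15 UMIs, 10 of the Serpine2 cOE ones in 1 nucleus) and of −0.74 in cluster 0 (34 and 37 UMIs). It was also higher in cluster 7 (33 and 10 UMIs, 1.30) and cluster 11 (21 and 12 UMIs, 1.15).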

How the results depend on the processing

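No paired analysis was possible because each group is 1 library. Settings with cluster 12 left out were chosen after seeing the data. The median log2 ratio of the genes (0.004) stayed within 0.1 of 0 in every setting run but changed sign in several: it was −0.015 with at least 1000 genes per nucleus, −0.031 without doublet removal, −0.056 after thinning to 1000 UMIs, −0.051 at equal cluster weights, −0.021 and −0.033 with a minimum of 20 and 200 UMIs, −0.0062 without cluster 12 and −0.066 at equal weights without cluster 12. Of genes 1.5-fold higher, 1 in the analysis reported, there were 2 after thinning, 3 with each nucleus weighted equally and 0 with a minimum of 200 UMIs, as Mmp9 has fewer. Of genes 1.5-fold lower, also 1, there were 0 at equal cluster weights, with and without cluster 12. Within clusters, Adamts7 in cluster 17 (log2 ratio 1.08) became −1.28 at resolution 2, where the value is that of the larger subcluster alone, with 1 and 2 UMIs (−7.16 to 2.99); the deep subcluster held 24 and 10 UMIs at 1.41 (0.30 to 2.64). Of the 43 pairs, 42 moved by less than their counting interval without the nucleus holding most UMIs in each library, 42 with each nucleus weighted equally and 40 at resolution 2. Still past 1.5-fold in the same direction were 42, 35 and 36 of them under these 3 settings. Without that nucleus Adamts5 in cluster 12 went from 2.53 to 1.08. The count of genes with the same highest cluster, 24 of 36, was 19 at resolution 2 and 20 at resolution 0.5. Timp1, Timp2, Timp3 and Mmp16 no longer shared a highest cluster at resolution 2, nor did Timp1 and Mmp2 at resolution 0.5. Sparse genes such as Adamts13 and Timp1 are limited by depth.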
